A study of Mus musculus with 4 samples.

Results

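The 10 genes described here are the bone morphogenetic protein (BMP) signalling genes Bmp4, Bmp7, Bmpr1a, Bmpr1b, Bmpr2 and Smad1 and the 4 ID genes Id1, Id2, Id3 and Id4. They were taken by symbol from the 35147 genes of the deposited table, and all 10 were present and passed the filter on low values. Each was measured as RNA that came down with an antibody to 4E-T or with control IgG. The tissue was the V-SVZ, the ventricular-subventricular zone, taken from wild-type CD1 mice aged P7 or P8 (postnatal day 7 or 8), and the labels name no transgene or treatment. There were 2 libraries per antibody, 1 in each of 2 numbered experiments. The labels do not say whether the experiments used separate animals, so the p-values reflect no more than library-to-library spread, which may be technical. No input RNA is used here, so a level in a precipitate is not the gene's level in the tissue.

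BMP4 and BMP7 are secreted ligands. They bring together a type I receptor, such as BMPR1A or BMPR1B, and a type II receptor such as BMPR2, and the type I receptor then phosphorylates SMAD1 and its relatives, which enter the nucleus with SMAD4. The ID genes are classic targets of this signal. ID proteins have a helix-loop-helix domain but no DNA-binding basic region, so they pair with E proteins and keep those from acting with proneural factors. In the postnatal V-SVZ, BMP signalling is known for favouring glial fates and stem cell quiescence over neurogenesis. 4E-T, encoded by Eif4enif1, binds the cap-binding protein eIF4E and represses translation; the comparison asks which of these mRNAs are found with it above the IgG level.

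Among the 10 genes, Id2 RNA was the one that was called higher with 4E-T, at 1.79 times its IgG share of gene reads. In the tests made here with every library in, the call needed the experiment number as a block. Such fits called 17.5% of all tested genes higher on FPKM and 13.2% on reads. Without the block, and with every library in, Id2 did not pass on FPKM or on reads. Id3 and Id4 also had values above 0 on every scale but did not pass. RNAs of Bmp7 and of the receptors Bmpr1a and Bmpr2 held smaller shares of both 4E-T libraries than of either IgG library. The same was true of 25.9% of all tested genes. The mean 4E-T shares of Bmp7, Bmpr1a and Bmpr2 were lower than the IgG means by 38.5%, 27.7% and 40.7%. On the deposited FPKM the groups overlapped for each of these genes, and none of them passed. Id1, Id3, Id4, Bmp4, Bmpr1b and Smad1 did not pass the test of 4E-T against IgG in any fit described below.

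The scale matters to each of these values. Gene reads, recovered from the steps of the FPKM values (fragments per kilobase of gene length, scaled to library size), came to 14421019 and 24780150 for IgG (replicates 1 and 2) and to 23006357 and 28749439 for 4E-T. The FPKM denominators differed far less, by at most 1.11 times, so the FPKM scale is not the same in every library. All 10 genes had a higher FPKM in IgG replicate 2 than in IgG replicate 1, by 1.15 to 2.33 times. As RPM (each gene's reads scaled to a fixed total of gene reads, 1000000) the same ratio ran from 0.687 to 1.39, with 5 genes above 1. Both scales are therefore given: FPKM to compare genes with each other, RPM to compare libraries. RPM is a share, so it also moves with the other RNAs of a library. The TMM scaling factors of the read-based test below, which adjust for this, ran from 0.929 to 1.11 over tested genes. Over all genes they ran from 0.832 (4E-T replicate 2) to 1.23 (IgG replicate 1). A member had 252 to 9696 reads in a library, and the exact 95% binomial interval of its share was ±1.995% to ±12.6% of the value, which covers counting error only.

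**Figure D1:**
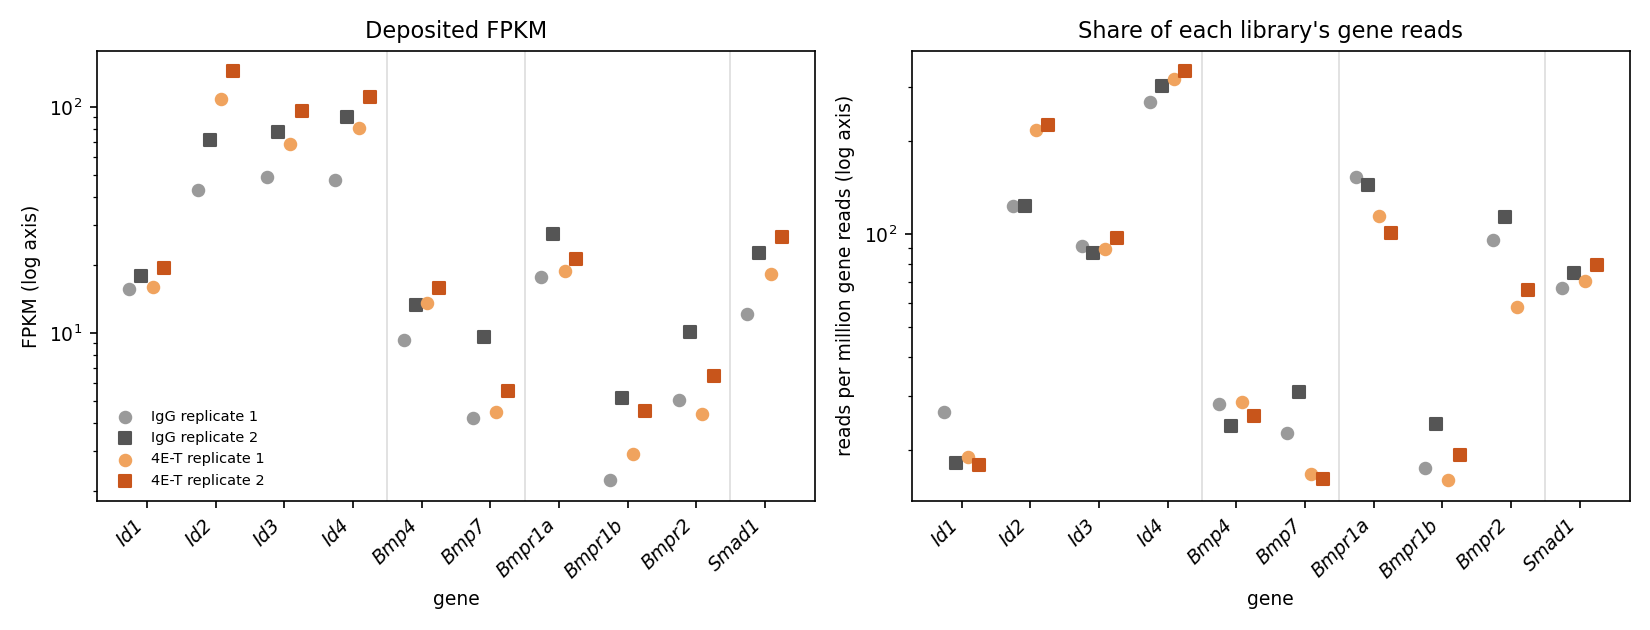
Level of each gene in each library, as deposited FPKM (left) and as RPM (right), both on log axes; each point is 1 library, and grey lines separate ID genes, ligands, receptors and Smad1. On the right the Id2 points of the 4E-T libraries (218 and 225) lie above those of IgG (both 124), and the Bmp7, Bmpr1a and Bmpr2 points lie below.

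Tests covered the 17651 genes whose mean FPKM was 1 or more. Without the experiment number in the model, limma on log2(FPKM + 1) called 0 of the 10 genes at an adjusted p under 0.05, against 0.00567% of all tested genes, and 1 member, Id2, had an unadjusted p under 0.05, as had 2297 of the 17651 tested genes. The read-based test (limma-voom on recovered reads) without a block also called 0 members, against 0% of all genes, with 3 members and 2653 of all tested genes at an unadjusted p under 0.05. Once the experiment number entered as a block, limma on FPKM called 1 of 10 (21.9% of all genes) and the read-based fit called 3 of 10 (24.7% of all genes). After quantile normalization the blocked fit called Id2 higher and Bmpr1a lower, against 10.4% and 9.23% of all genes. On FPKM rescaled to gene reads it called Id2 higher and Bmpr2 lower (9.55% and 5.7%, 15.3% in all). By range alone, 2 members were higher with 4E-T without overlap on FPKM and 0 lower (32.6% and 8.13% of all genes, 40.7% together). On RPM 2 were higher and 3 lower (48.8% of all genes in either direction). Some of these shares of members lie below those of all genes, and others lie near or above them. With only 10 genes such differences are too coarse to read, so the count itself sets the 10 genes apart in no way. The blocked fits leave 1 residual degree of freedom per gene and borrow their spread from other genes, so their p-values say little on how a single gene varies. The median log2 fold change of all tested genes was 0.18 on FPKM and -0.08 in the read-based fit, and values "relative to all genes" below have that median subtracted.

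Id2 lies on chromosome 12, at 25093799 to 25096092 (RefSeq annotation of GRCm38.p6, the assembly known as mm10), and encodes an ID protein active in neural and glial precursors. Its FPKM were 42.9 and 71.6 for IgG (replicates 1 and 2) and 108 and 144 for 4E-T, so the groups did not overlap. In reads this was 1784 and 3063 for IgG against 5008 and 6480 for 4E-T. As shares these were 124 RPM in both IgG libraries against 218 and 225 RPM with 4E-T, and both 4E-T libraries stood far outside the narrow IgG range. The 4E-T to IgG ratio of RPM was 1.76 in experiment 1 and 1.82 in experiment 2.

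Id2 rose in each fit with the experiment block. Its log2 fold change was 1.15 on FPKM (SE 0.31, limma with the block, adjusted p = 0.00184) and 0.87 in the read-based fit (SE 0.23, limma adjusted p = 0.0015), where 13.2% of all genes were called higher. Relative to all genes the change was 0.97 and 0.95 on the log2 scale. Without the block the call was lost, at a limma adjusted p of 0.368 on FPKM and 0.208 on reads. In the authors' deposited table Id2 had a log2 fold change of 1.15 with an adjusted p of 0.000583. It was the only member below 0.05 there, in a table where 10.7% of genes with an adjusted p were called higher and 2.61% lower. Its read-based fold change exceeded that of 92.9% of tested genes.

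**Figure D2:**
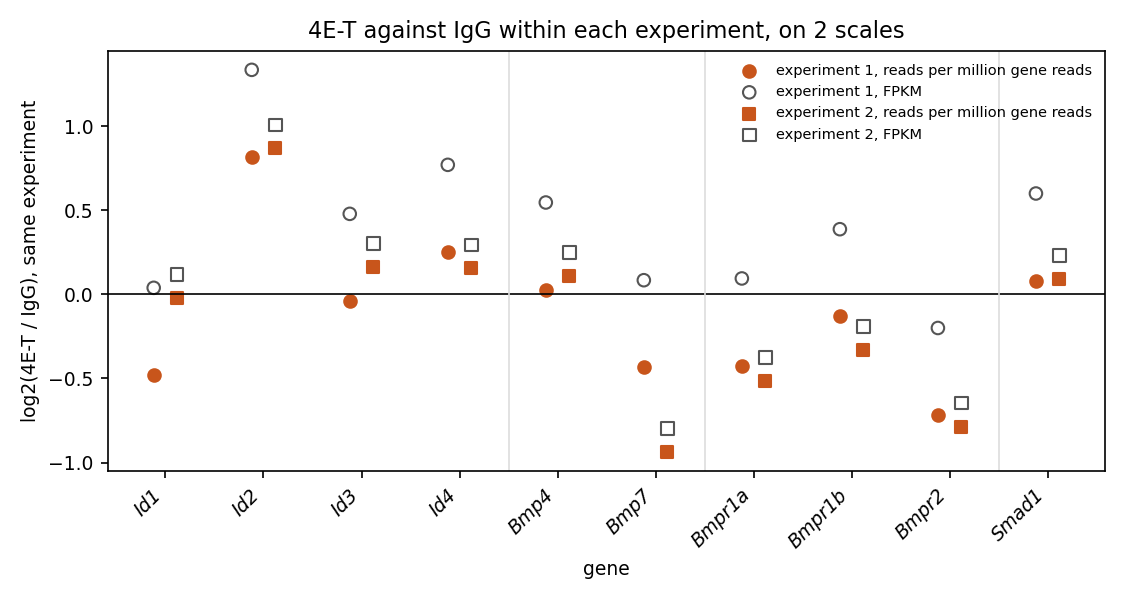
Log2 ratio of 4E-T to IgG for each gene within experiment 1 (circles) and experiment 2 (squares), from RPM (filled) and from FPKM (open); grey lines separate the roles. Id2 lies above 0 in all 4 ratios, and the FPKM ratios lie above the RPM ratios in both experiments.

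Id4, on chromosome 13 at 48261116 to 48266028, had 47.5 and 89.8 FPKM in IgG against 80.9 and 110.1 FPKM with 4E-T. It was the most abundant of the 4 by reads, with 267 and 303 RPM in IgG and 318 and 337 RPM with 4E-T. Its RPM did not overlap between groups, as for 22.9% of tested genes in this direction, but the gap between the groups was smaller than that between the IgG libraries. Its log2 fold change in the blocked read-based fit was 0.24 (95% interval -0.24 to 0.73), which did not pass (limma adjusted p = 0.504). A long non-coding gene, A330033J07Rik, overlaps Id4 in the annotation, and the strand setting of the counting is not given, so their reads cannot be told apart.

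Id3, on chromosome 4 at 136143822 to 136145392, had 91.8 and 87.0 RPM in IgG and 89.3 and 97.3 RPM with 4E-T, so the groups overlapped. Its FPKM were 49.1 and 77.7 in IgG and 68.3 and 95.7 with 4E-T. The blocked read-based log2 fold change was 0.09, with a 95% interval from -0.32 to 0.50, and this did not pass (limma adjusted p = 0.794). Id3 is often expressed together with Id1, in vessels as well as in neural stem cells.

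Id1, on chromosome 2 at 152736251 to 152737410, is known from neural stem cells and endothelium, and was the least abundant ID RNA. It had 15.6 and 17.9 FPKM in IgG and 16.02 and 19.4 FPKM with 4E-T. In RPM, IgG replicate 1 stood apart at 26.5, while IgG replicate 2 had 18.2 and the 4E-T libraries 19.0 and 17.9. The log2 fold change was 0.07 on FPKM and -0.22 in the blocked read-based fit (95% interval -0.65 to 0.21, limma adjusted p = 0.5), so its direction depended on the scale. Endothelial and mural markers moved with that library: the 12 fixed markers summed to 909 RPM in IgG replicate 1, 390 RPM in IgG replicate 2 and 261 and 311 RPM with 4E-T. None of the 12 was at 0 in any library, and 11 of the 12 were lower with 4E-T in the blocked read-based fit, where 11.5% of all genes were. In the blocked FPKM fit 5 of the 12 were lower, after blocked quantile normalization 1, and without the block 0 on FPKM or reads. The part of vascular RNA in the Id1 value was not tested.

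The mix of ID RNAs within a library needs no scaling between libraries. Id2 made up 27.7% and 27.9% of the summed FPKM of the 4 ID genes with IgG, against 39.6% and 39.0% with 4E-T. It ranked below Id3 and Id4 in both IgG libraries and above them in both 4E-T libraries. The ratio of Id2 to Id3 FPKM was 0.875 and 0.922 in IgG and 1.58 and 1.503 with 4E-T, and that of Id2 to Id4 was 0.904 and 0.797 against 1.34 and 1.31. Against Id1 the ratio was 2.75 and 4.00 in IgG and 6.75 and 7.40 with 4E-T. The groups did not overlap for any of the 3 ratios. Among 6 ratios of members examined, an exact two-sided permutation test over the 4 libraries gave p = 0.333 for each of these 3, which is the smallest p that 2 against 2 allows. Such a ratio shows that the RNAs changed unequally, and does not show that Id3 or Id4 stayed the same.

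**Figure D3:**
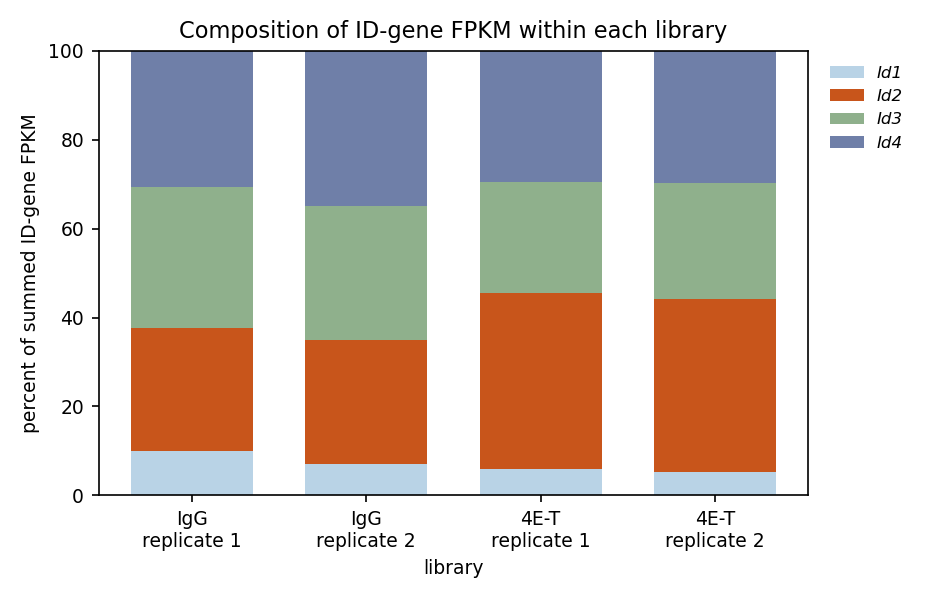
Share of each ID gene in the summed FPKM of the 4 ID genes, in percent, as 1 stacked bar per library. The Id2 segment takes 27.7% and 27.9% of the IgG bars against 39.6% and 39.0% of the 4E-T bars.

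The genes whose pattern over the 4 libraries lay closest to that of Id2 were Ncor1, Gpbp1 and Ttc5. Likeness was the Euclidean distance between log2(FPKM + 1) values centred per gene, and the distances were 0.03 for Ncor1, 0.04 for Gpbp1 and 0.05 for Ttc5. With 4 libraries and 17651 genes, close matches of this kind are easy to find.

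Of the ligands, Bmp7 on chromosome 2 (172868012 to 172940321) held less of the 4E-T libraries, and Bmp4 on chromosome 14 (46383525 to 46390669) did not differ detectably. Bmp7, made in the brain by meninges, choroid plexus and some neural cells, had 327 and 765 reads in IgG and 386 and 464 reads with 4E-T. As shares these were 22.7 and 30.9 RPM in IgG and 16.8 and 16.1 RPM with 4E-T, both below the lower IgG value, as for 25.9% of tested genes in this direction. The RPM ratio was 0.74 in experiment 1 and 0.523 in experiment 2. Bmp7 fell in the blocked read-based fit (log2 fold change -0.69, SE 0.22, limma adjusted p = 0.0107), where 11.5% of all genes were called lower. With scaling factors taken over all genes of the table, chosen after seeing the data, that value was -0.46 and did not pass (limma adjusted p = 0.111). Nor did Bmp7 pass in the blocked limma fits of quantile-normalized FPKM (adjusted p = 0.193) or of FPKM rescaled to gene reads (adjusted p = 0.077). On FPKM it had 4.22 and 9.60 in IgG against 4.47 and 5.53 with 4E-T, which overlap, and it did not pass there (log2 fold change -0.32, limma with the block, adjusted p = 0.408). Without IgG replicate 2 the FPKM value turned to 0.20, while the read-based value was -0.35.

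Bmp4, a ligand that stem cells and their neighbours in the niche produce, had 28.2 and 24.01 RPM in IgG and 28.7 and 25.9 RPM with 4E-T. The groups overlapped and the read-based log2 fold change with the block was 0.09 (95% interval -0.32 to 0.51, limma adjusted p = 0.781). Its FPKM of 9.32 and 13.3 in IgG and 13.6 and 15.8 with 4E-T did not overlap, by a margin smaller than the spread within either group. The ratio of Bmp4 to Bmp7 FPKM was 2.21 and 1.38 with IgG against 3.04 and 2.85 with 4E-T (exact two-sided permutation p = 0.333). Long non-coding genes of the annotation overlap Bmp4 (Gm15217 and Gm15222) and Bmp7 (Gm40010), so reads of each pair cannot be told apart.

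All 3 receptor genes had lower mean shares with 4E-T. Summed, they took 267 and 282 RPM of the IgG libraries and 189 and 186 RPM of the 4E-T libraries. Bmpr2, the type II receptor gene on chromosome 1 (59764279 to 59878081), had 1380 and 2827 reads in IgG and 1338 and 1903 reads with 4E-T. Its share was 95.7 and 114 RPM in IgG and 58.2 and 66.2 RPM with 4E-T, with no overlap and ratios of 0.608 in experiment 1 and 0.58 in experiment 2. It fell in the blocked read-based fit (log2 fold change -0.72, SE 0.21, limma adjusted p = 0.00492). On FPKM, at 5.07 and 10.1 in IgG and 4.41 and 6.45 with 4E-T, the groups overlapped and the log2 fold change of -0.37 did not pass (limma with the block, adjusted p = 0.312). That FPKM value was 0.065 without IgG replicate 2 and -0.80 without IgG replicate 1. Relative to all genes the 2 scales lay closer, at -0.55 on FPKM and -0.64 on reads.

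Bmpr1a, a type I receptor gene on chromosome 14 (34411061 to 34503336), had the highest FPKM of the 3 member receptors in every library, at 17.6 and 27.6 FPKM in IgG and 18.8 and 21.2 FPKM with 4E-T. In RPM it had 154 and 144 in IgG and 115 and 101 with 4E-T, which do not overlap, with ratios of 0.745 and 0.7 in experiments 1 and 2. The log2 fold change of -0.43 in the blocked read-based fit did not pass (95% interval -0.86 to -0.0041, limma adjusted p = 0.134). It did pass in the blocked fit of quantile-normalized FPKM, at -0.54 (adjusted p by limma 0.0158), in a fit that called 19.7% of all genes. On the deposited FPKM the value was -0.14 (limma with the block, adjusted p = 0.808), and it turned to 0.17 without IgG replicate 2.

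Bmpr1b, the other type I receptor gene, on chromosome 3 (141837135 to 142169585), was the lowest member by FPKM in every library, at 2.23 and 5.19 FPKM in IgG and 2.92 and 4.54 FPKM with 4E-T. In RPM it had 17.5 and 24.3 in IgG and 15.95 and 19.3 with 4E-T, so the groups overlapped. Its log2 fold change was 0.06 on FPKM and -0.23 in the blocked read-based fit (95% interval -0.67 to 0.21, limma adjusted p = 0.477), and its direction depended on the scale.

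Smad1, on chromosome 8 (79338395 to 79399428), encodes the SMAD that carries the BMP signal to the nucleus. It had 66.9 and 74.8 RPM in IgG and 70.8 and 79.7 RPM with 4E-T, so the experiments differed more within an antibody than the antibodies did within an experiment. The ratio of RPM was 1.06 in experiment 1 and 1.07 in experiment 2, and the blocked read-based log2 fold change was 0.12 (95% interval -0.29 to 0.52, limma adjusted p = 0.712).

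**Figure D4:**
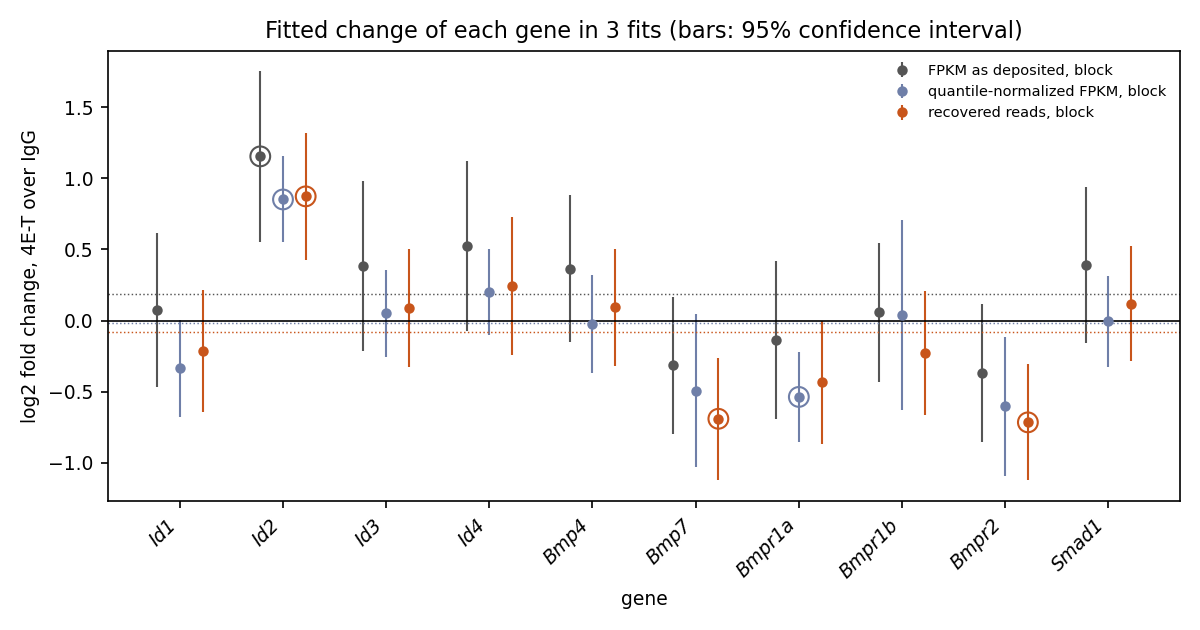
Log2 fold change of 4E-T over IgG for each gene with its 95% confidence interval, in 3 limma fits with the experiment block: deposited FPKM, quantile-normalized FPKM and recovered reads. Ringed points have an adjusted p under 0.05, and dotted lines mark the median of all tested genes in each fit; Id2 is ringed in all 3, Bmp7 and Bmpr2 in the read-based fit and Bmpr1a after quantile normalization.

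By level, the ID genes other than Id1 stood above the rest. Mean FPKM in IgG were 68.6 ± 29.96 for Id4, 63.4 ± 20.2 for Id3 and 57.3 ± 20.3 for Id2 (SD, n = 2 here and below), and these 3 means differ by less than the SD. Bmpr1a at 22.6 ± 7.02, Smad1 at 17.4 ± 7.42 and Id1 at 16.7 ± 1.63 FPKM followed, with Bmpr1a above Smad1 and Id1 in both IgG libraries. Bmp4 had 11.3 ± 2.80, Bmpr2 7.58 ± 3.55, Bmp7 6.91 ± 3.80 and Bmpr1b 3.71 ± 2.09 FPKM. With 4E-T the order was Id2 at 126 ± 25.2, Id4 at 95.5 ± 20.6 and Id3 at 82.0 ± 19.3 FPKM. Smad1 (22.4 ± 5.80), Bmpr1a (20.0 ± 1.72), Id1 (17.7 ± 2.42) and Bmp4 (14.7 ± 1.52) came next, then Bmpr2 (5.43 ± 1.44), Bmp7 (4.999 ± 0.745) and Bmpr1b (3.73 ± 1.15).

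Of 70 further genes of the pathway, listed by role, 69 were in the table and 46 were tested. Without a block limma called 0 of the 46 on FPKM (0 at an unadjusted p under 0.05) and 0 on reads (3 at an unadjusted p under 0.05), where 2297 and 2653 of the 17651 tested genes had such a p. With the block, 4 rose and 0 fell on FPKM, against 17.5% of all genes called higher and 4.44% called lower. In the blocked read-based fit 3 rose and 4 fell. With scaling factors taken over all genes of the table, chosen after seeing the data, the split was 8 higher and 0 lower, and that of all tested genes 3908 and 841 in place of 2327 and 2035. In the fit with factors over tested genes the median log2 fold change of the 46 was -0.07, against -0.08 for all tested genes. With factors over all genes the median of all tested genes was 0.15.

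The 3 that rose on both scales were Olig2, Tob1 and Hes1. Olig2, a bHLH factor of the oligodendrocyte lineage that ID proteins can hold back, had 25.6 and 50.1 FPKM in IgG and 79.2 and 76.4 FPKM with 4E-T. Its log2 fold change in the read-based fit was 0.84 (SE 0.22, limma with the block, adjusted p = 0.00179). Hes1, a repressor of neurogenesis best known as a Notch target, had 8.42 and 12.95 FPKM in IgG and 16.97 and 21.9 FPKM with 4E-T (read-based log2 fold change 0.58, limma adjusted p = 0.038). Tob1, an antiproliferative protein that binds SMADs and also the CCR4-NOT deadenylase, had 13.1 and 19.0 FPKM in IgG and 27.1 and 31.3 FPKM with 4E-T (read-based log2 fold change 0.59, limma adjusted p = 0.0216). For each of the 3, both 4E-T libraries were above both IgG libraries on FPKM, as for 32.6% of all tested genes. The naming rule asked for a pass with the same direction in both experiments, so this separation is no added support. Nedd4l, a ubiquitin ligase that acts on SMADs, rose in the blocked FPKM fit (log2 fold change 0.80, limma adjusted p = 0.0323) and did not pass on reads (0.0904).

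Of the E proteins and bHLH partners held by ID proteins (8 tested), 1 rose on FPKM and on reads, Olig2, and Olig1, its paralogue, was called lower after blocked quantile normalization (adjusted p by limma 0.0311). The E protein genes Tcf3, Tcf4 and Tcf12, which lie outside the naming rule and were chosen after their values were seen, did not pass in the blocked FPKM or read-based fit. The intracellular SMAD modulators (12 tested) had 1 that rose in the read-based fit and 0 that fell. The other target transcription factors (4 tested) had 1 and 0. That fit, with the block, called 13.2% of all tested genes higher and 11.5% lower. Of the other SMAD genes (3 tested) 0 passed in either blocked fit. Smad4, the partner shared by all receptor-activated SMADs, had 33.5 and 78.0 FPKM in IgG and 43.4 and 65.4 FPKM with 4E-T, and Smad5, a close relative of Smad1, had 10.7 and 20.7 against 12.6 and 17.3 FPKM.

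Among other ligands only Bmp6 was tested, as 10 of the 11 in the table were under the filter. It had 2.28 and 3.81 FPKM in IgG and 2.01 and 3.10 FPKM with 4E-T and did not pass in either blocked fit. Of 9 extracellular antagonists and modulators tested 1 fell in the read-based fit, Nbl1, a secreted BMP antagonist (log2 fold change -0.55, limma adjusted p = 0.0361). That fit, with the block, called 11.5% of all tested genes lower. Twsg1, which binds BMPs and chordin outside the cell, had 15.0 and 29.1 FPKM in IgG and 17.4 and 23.3 FPKM with 4E-T, and the secreted glycoprotein gene Fstl1 had 16.9 and 29.99 against 17.9 and 27.4 FPKM. Twsg1 was called lower after blocked quantile normalization (adjusted p by limma 0.0393) but not on reads; Nbl1 was called lower in both (0.00922 after quantile normalization).

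Of the other receptors and co-receptors (9 tested), 0 passed on FPKM with the block. In the blocked read-based fit, which called 11.5% of all genes lower, 3 fell. They were Acvrl1 (log2 fold change -1.24, limma adjusted p = 0.000165), Eng (-0.79, adjusted p = 0.0015) and Tgfbr3 (-0.88, adjusted p = 0.0185). ACVRL1 is the endothelial type I receptor for BMP9 and BMP10, endoglin its co-receptor, and TGFBR3 a co-receptor of wider expression. With Nbl1 they lie outside the naming rule and were chosen after their values were seen. The fall of Acvrl1, Eng and Tgfbr3 lay mostly in experiment 1. The RPM ratio of Acvrl1 was 0.222 there and 0.801 in experiment 2, that of Eng 0.321 and 1.02, and that of Tgfbr3 0.367 and 0.813. Nbl1 fell in both, at 0.704 and 0.644. The endothelial and mural markers given above for Id1 had the same high library, IgG replicate 1, and their part in these values was not tested. The receptors of broad expression Rgmb, a BMP co-receptor (13.7 and 28.1 FPKM in IgG, 17.9 and 24.96 with 4E-T), and Neo1, which binds RGM proteins (11.5 and 25.6 against 16.8 and 29.2 FPKM), did not pass.

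**Figure D5:**
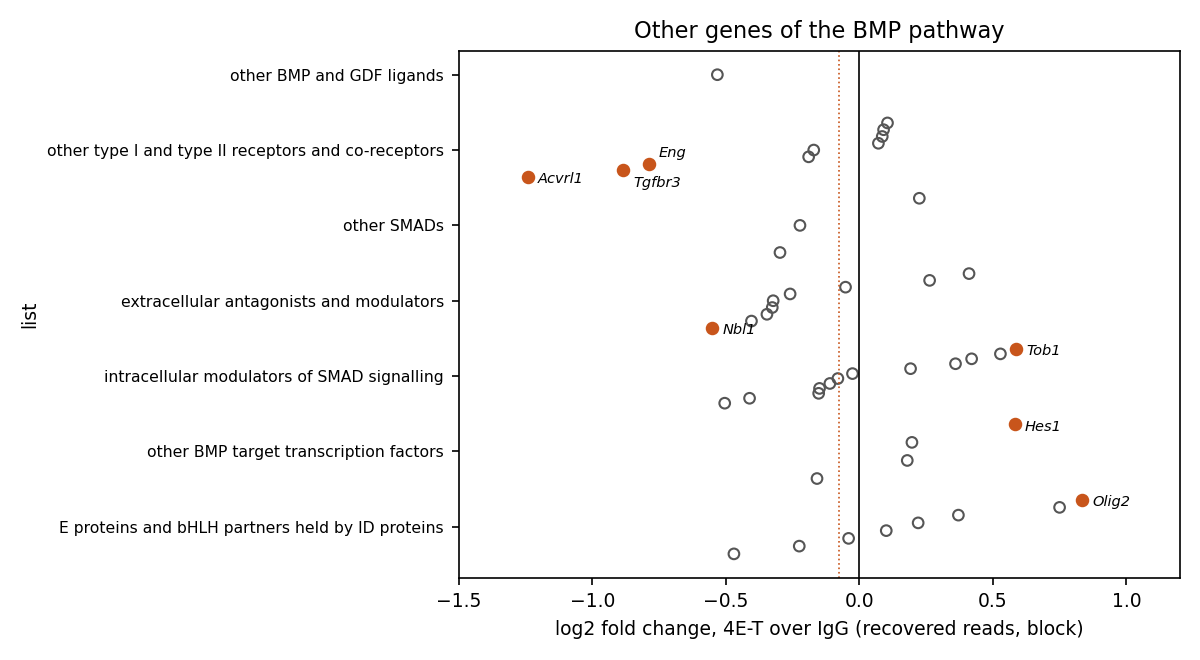
Log2 fold change of 4E-T over IgG in the read-based fit with the experiment block for the 46 tested genes of the BMP pathway other than the 10 members, by list; height within a list only separates the points. Filled, named points have an adjusted p under 0.05, and the dotted line marks the median of all tested genes.

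The precipitates held RNA of the cell types known for this niche. Slc1a3 of stem cells and astroglia had 112 to 365 FPKM over the 4 libraries, Dlx2 of transit-amplifying cells and neuroblasts 40.3 to 110 FPKM and Dcx of neuroblasts 20.8 to 33.6 FPKM. Markers of cells that make BMP ligands outside the neural lineage were present too. The 6 choroid plexus markers summed to 179 and 77.2 RPM in IgG and 114 and 42.4 RPM with 4E-T, and the 6 meningeal fibroblast markers to 242 and 355 RPM in IgG and 188 and 358 RPM with 4E-T. Both sums overlapped between the groups. Even so, 1 of 4 tested choroid plexus markers and 3 of 4 tested meningeal markers were lower with 4E-T in the blocked read-based fit. That fit called 13.2% of all tested genes higher and 11.5% lower. In the blocked FPKM fit 0 choroid plexus markers and 1 meningeal marker were lower, and after blocked quantile normalization 1 of each. The part of choroid plexus and meningeal RNA in the Bmp7 value was not tested. Neural marker sums also differed. The 6 transit-amplifying markers summed to 792 and 728 RPM in IgG and 1528 and 864 RPM with 4E-T, so they moved with Id2 and Olig2. In the blocked read-based fit 3 of these 6 were called higher and 0 lower. The 6 neuroblast markers summed to 1029 and 1131 RPM against 943 and 841 RPM, but 1 was called higher and 0 lower. The 6 oligodendrocyte lineage markers summed to 2300 and 3540 against 1965 and 1982 RPM, with 2 called higher, Olig2 among them, and 1 lower. Microglial markers (510 and 693 against 398 and 364 RPM) and ependymal ones (173 and 146 against 122 and 88.1 RPM) had lower sums with 4E-T, with 3 of 6 called lower in each list and 0 higher. The blocked FPKM fit called 1 lower in each list, and blocked quantile normalization 4 microglial and 3 ependymal markers. The 8 stem cell and astroglial markers overlapped, at 2293 and 3358 against 2112 and 2395 RPM, with 1 called higher and 2 lower. Without the block, 0 markers of any of these lists were called on FPKM or reads. The part of any of these cell types in the Id2 or receptor values was not tested. In bulk precipitates, fewer cells of a type, less RNA per cell and less RNA brought down by the antibody cannot be told apart.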

How the data were processed

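RNA from anti-4E-T and anti-IgG precipitates was isolated with a MAGNA RIP kit, and libraries were made with SMART-Seq v4 and Nextera XT kits, per the labels' protocols. Tools named, per the submitters' processing notes, were DESeq, DESeq2 1.26.0, HTSeq 0.6.1p2, STAR 2.6.0c, Trim Galore 0.5.0 and FastQC 0.11.5, with the build mm10. No source used here gives their roles, the annotation or the strand setting. FPKM were deposited per library by the authors. Per the file headers, the authors' DESeq2 columns hold a mean normalized signal, a log2 fold change with its error, a Wald score, p-values and a linear fold change.

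Reads were recovered from the FPKM steps and the deposited mean signal; 99.996% of values were whole within 0.001, and all within 0.00293. Genes with mean FPKM of at least 1 were tested with limma 3.58.1 (R 4.3.3) on log2(FPKM + 1), antibody only, trended and robust, two-sided, with Benjamini-Hochberg adjustment over all 17651 genes. Fold changes on that scale understate low genes. The read-based fit used limma-voom with TMM factors over tested genes (trims 0.3 and 0.05). The experiment number in the titles was taken as a shared batch. Same-numbered libraries deviated together (correlation 0.67 on FPKM, 0.63 on log2 RPM, and lower, 0.49, after quantile normalization). The members and gene lists were chosen with earlier results of these data known. Other pathway genes are named if they passed the blocked FPKM fit in the same direction in both experiments (up to 4 per list by fold change), otherwise the 2 with the highest FPKM. Coordinates are from RefSeq, GRCm38.p6.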

Additional observations from a re-analysis of the deposited data

How the results depend on the processing

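With the replicate block, 3874 genes, 1 member and 4 other pathway genes were called. The counts were 3473, 2 and 5 after quantile normalization with the replicate block, and 4362, 3 and 7 on recovered reads with the replicate block. With TMM over all genes, chosen after seeing the data, they were 4749, 2 and 8. FPKM rescaled to gene reads with the replicate block, also chosen after seeing the data, gave 2692, 2 and 5. Without the block 0 genes were called with no filter (at an unadjusted p under 0.05, 1926 were higher and 1042 lower), with quantile normalization (1762 and 1257), on recovered reads (1933 and 720) or on FPKM rescaled to gene reads (1644 and 945), all with limma. Leaving out 1 library gave 2 to 3535 genes, 0 to 1 members and 0 to 6 other pathway genes on FPKM. On reads it gave 2003 genes without IgG replicate 1, 1526 without IgG replicate 2, 3 without 4E-T replicate 1 and 43 without 4E-T replicate 2, with 0 to 2 members and 0 to 4 other pathway genes; with the block no such fit was possible, as no residual degrees of freedom are left. Id2 kept its direction in all 18 alternatives, with log2 fold changes of 0.79 to 1.52. The smallest, 0.79, came on FPKM without IgG replicate 1. With every library in, Id2 was called only in fits with the block.

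Directions turned for 7 members. Id1 was at -0.34 after quantile normalization with or without the block, at -0.22 and -0.21 on reads with and without it, and at -0.23 on FPKM rescaled to gene reads with or without it. With 1 library left out Id1 ranged from -0.057 to 0.21 on FPKM, and on reads it was at -0.014 and -0.41 without IgG replicates 1 and 2 and at -0.22 and -0.19 without 4E-T replicates 1 and 2. Bmpr1b was at -0.23 on reads with or without the block and at -0.17 on rescaled FPKM with or without it. With 1 library left out it ranged from -0.41 to 0.53 on FPKM, and on reads it was at -0.50 without IgG replicate 1 and at -0.079 and -0.40 without 4E-T replicates 1 and 2. After quantile normalization with or without the block Bmp4 was at -0.022 and Smad1 at -0.0060. Smad1 ranged from -0.032 to 0.82 on FPKM with 1 library left out, and was at -0.033 on reads without IgG replicate 1. On FPKM Bmp7 ranged from -0.83 to 0.20, Bmpr1a from -0.44 to 0.17 and Bmpr2 from -0.80 to 0.065, each above 0 without IgG replicate 2; on reads they were below 0 whichever library was left out. The causes were not tested. The planned edgeR and DESeq2 fits were not run; limma-voom on the recovered reads was used in their place. The lowest member, Bmpr1b, rested on 252 reads in its smallest library.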
